A study of Mus musculus with 8 samples.

Results

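Skil, Ski, Tgif1, Tgif2 and Pmepa1 encode 5 proteins that hold back SMAD signalling, and their transcript levels were read in mouse muscle stem cells given a short pulse of bone morphogenetic protein (BMP). The 5 genes were taken by gene name from the table of transcript levels, in which they are 5 of 55223 loci. All 5 averaged at least 0.5 TPM (a share of all transcripts, corrected for their length), the minimum for testing, as did 16908 loci in all. There were 4 groups of 2 libraries each. The BMP4 group received 100 ng/ml BMP4 for 1 h and the vehicle_a group the carrier of that ligand, 4 mM HCl with 0.1% BSA. The BMP6 group received 100 ng/ml BMP6 for 1 h and the vehicle_b group the same carrier. Each isolation of cells gave 1 stimulated and 1 vehicle library, isolations 48 and 54 in the BMP4 experiment and isolations 75 and 77 in the BMP6 experiment. All cells came from muscle of wild-type C57BL/6J female mice of 6 to 8 weeks, were expanded on Matrigel for 2 days and then spent 6 h in serum-free medium with 200 ng/ml of a soluble BMPR-IA/ALK3-Fc receptor, which binds BMPs, before the pulse. These conditions were shared by all 4 groups, so the vehicle cells had also been held with the BMP trap, and ligand and experiment coincide. The labels do not say whether an isolation pooled animals.

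BMPs bind cell-surface receptor kinases, which phosphorylate SMAD1, SMAD5 and SMAD9. These join SMAD4, enter the nucleus and activate genes such as the Id family and the inhibitory SMADs. TGF-beta and activin use the same scheme with SMAD2 and SMAD3. SKI and SnoN, the product of Skil, bind SMAD4 and the receptor SMADs on DNA and bring in the NCoR, SIN3 and histone deacetylase complexes. TGIF1 and TGIF2 are homeodomain proteins of the TALE class that bind SMAD2 or SMAD3 and recruit histone deacetylases, and PMEPA1 is a membrane protein that keeps SMAD2 and SMAD3 from the receptor anchor SARA. The Skil and Pmepa1 genes are themselves known as direct targets of TGF-beta. In muscle, BMP signalling is known to keep activated stem cells dividing, and forced SKI drives quail embryo cells into muscle.

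Estimated library depth lay between 48012825 and 58002740 reads, and the lowest estimate behind any value below was 581 reads, for Tgif2. The defining myogenic markers were present, 10 of 10 in the list, with a summed level of 3607 to 4818 TPM in BMP4 cells, 4022 to 5056 TPM in vehicle_a cells, 1510 to 1823 TPM in BMP6 cells and 1335 to 1758 TPM in vehicle_b cells. The endothelial and adipocyte lists summed to under 1 TPM in every library. The immune list summed to between 11.8 and 18.5 TPM, with 4 of its 6 genes below 0.5 TPM, Ptprc and Adgre1 among them at 0. In the fibroblast and fibro-adipogenic list the sums were 160 to 222 TPM in BMP4 cells and 175 to 251 TPM in vehicle_a cells. They were 55.5 to 69.4 TPM in BMP6 cells and 60.5 to 67.7 TPM in vehicle_b cells. The Schwann list summed to between 11.3 and 31.6 TPM. The pericyte and smooth muscle list summed to 745 to 1415 TPM in BMP4 cells, 740 to 1432 TPM in vehicle_a cells, 70.5 to 76.6 TPM in BMP6 cells and 61.4 to 71.1 TPM in vehicle_b cells, with 2 of its 6 genes below 0.5 TPM. The experiments therefore differed in the myogenic, fibroblast and pericyte sums, while the sums of the stimulated and vehicle groups within an experiment overlapped. Of the single markers, 2 passed in limma with the isolation term and none without it, and both are named here after their values were seen. Myf5, a myogenic transcription factor gene, stood at 23.0 and 16.6 TPM in BMP4 cells, against 52.3 and 38.2 TPM in vehicle_a cells, and at 58.6 and 52.3 TPM in BMP6 cells, against 94.0 and 86.4 TPM in vehicle_b cells. It was lower without overlap in both experiments, by log2 changes of -1.17 and -0.70 (limma with the isolation term, adjusted p = 0.00326 and 0.0192). The share of all tested loci that were lower without overlap was not computed. Cspg4, a pericyte marker gene, passed as higher for the mean of both ligands (0.49, limma with the isolation term, adjusted p = 0.0261). The part of these markers in the results below was not tested. In bulk samples fewer cells of a type and less RNA per cell cannot be told apart.

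Skil had the largest mean change of the 5 genes with either ligand, and Pmepa1 the next largest. Ski was slightly higher in the stimulated library of each of 4 isolations. Tgif1 was higher in both BMP4 isolations and level in both BMP6 isolations, and Tgif2 showed no common direction. Skil, Ski and Pmepa1, 3 of the 5, were higher in the stimulated library of all 4 isolations, which 8.19% of all tested loci were. The levels of BMP4 cells lay above those of vehicle_a cells without overlap for 4 of the 5 genes, against 10.3% of tested loci, and those of BMP6 cells above those of vehicle_b cells for 3 of the 5, against 10.6%.

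**Figure D1:**
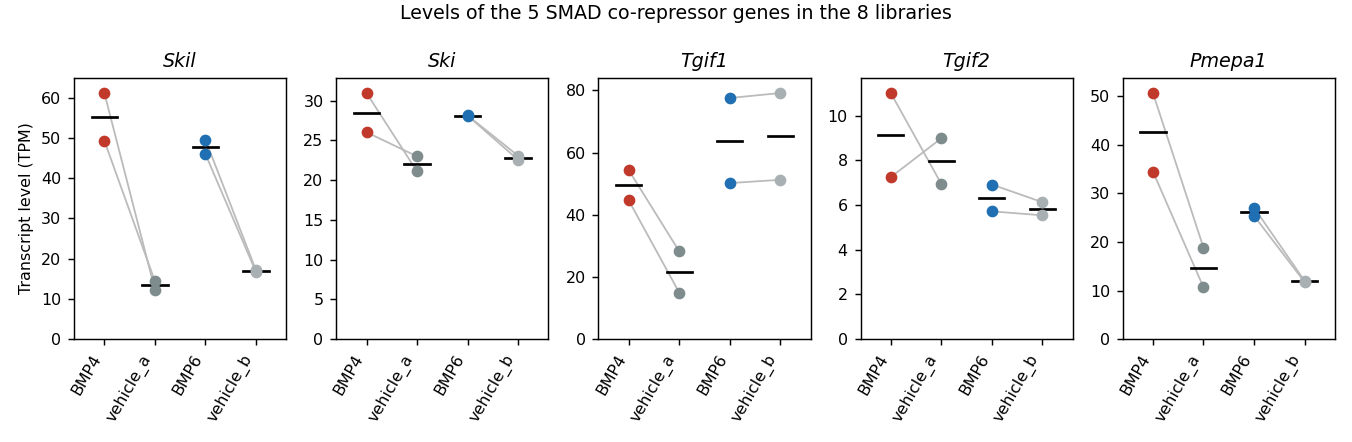
Level in TPM (vertical axes, from 0, own scale for each gene) of Skil, Ski, Tgif1, Tgif2 and Pmepa1 in the BMP4, vehicle_a, BMP6 and vehicle_b libraries. Points are single libraries, black bars group means of 2, and grey lines join the 2 libraries of 1 isolation; Skil and Pmepa1 lie higher in every stimulated library, while the Tgif1 lines of BMP6 are flat.

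Skil (merged_LIST.14817, GRCm39 chromosome 3, 31149207 to 31176726, plus strand) encodes SnoN. It stood at 49.3 and 61.1 TPM in BMP4 cells, against 14.4 and 12.3 TPM in vehicle_a cells. It stood at 46.0 and 49.6 TPM in BMP6 cells, against 16.7 and 17.1 TPM in vehicle_b cells. No stimulated library came near a vehicle library: the lowest stimulated library held 46.0 TPM and the highest vehicle library 17.1 TPM. The group means were 55.2 ± 8.40 TPM with BMP4 and 13.4 ± 1.49 TPM with vehicle_a, and 47.8 ± 2.54 TPM with BMP6 and 16.9 ± 0.294 TPM with vehicle_b (SD, n = 2 each). The change in log2(TPM + 0.5) was 2.00 with BMP4 (SE 0.14, 4.01-fold), and Skil rose by limma, with a Benjamini-Hochberg adjusted p of 0.0383. It was the only one of the 5 genes to pass, where 0.0177% of all tested loci passed as higher. With BMP6 the change was 1.47 (SE 0.14, 2.77-fold, limma adjusted p = 0.0905), so that 0 of the 5 genes passed, where 0.00591% of tested loci did so as higher. An unadjusted limma p under 0.05 was found for 213 loci, fewer than the 845.4 expected if no locus changed. Averaged over both ligands the Skil change was 1.74 (SE 0.10, limma adjusted p = 0.00526), again 1 of the 5 genes, against 0.0651% of tested loci.

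With a term for the isolation in the fit, which takes each stimulated library against the vehicle library of the same cells, the same Skil changes had limma adjusted p values of 0.0159 with BMP4, 0.0583 with BMP6 and 0.00745 for the mean of both. In the fit without that term the BMP4 call was lost without BMP4 replicate 2 (limma adjusted p = 0.0774), vehicle_a replicate 2 (0.0782), BMP6 replicate 1 (0.164) or 2 (0.163), or vehicle_b replicate 1 (0.197) or 2 (0.195), with changes of 1.85 to 2.00. In the fit with the term it was lost without isolation 75 (limma adjusted p = 0.0558) or 77 (0.0517), and the BMP6 change passed without isolation 48 (0.0119) or 54 (0.0113). From the 4 libraries of the BMP4 experiment alone Skil did not pass (2.00, limma adjusted p = 1), and from those of the BMP6 experiment alone it did (1.47, limma adjusted p = 0.0395). The call for the mean was lost without BMP6 replicate 1 (limma adjusted p = 0.0539), vehicle_b replicate 1 (0.0532) or 2 (0.0589) and, with the isolation term, without isolation 75 (0.0641) or 77 (0.0608). Skil was higher in 4 of 4 isolations, by 1.74, 2.27, 1.43 and 1.51 in isolations 48, 54, 75 and 77.

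Skil reads were more frequent at both ends of the transcript, though in unequal measure. Coverage of its first exon, per 1000000 estimated reads, was higher with stimulation by a log2 ratio of 1.37, 1.58, 0.88 and 0.71 in isolations 48, 54, 75 and 77. Coverage of its last exon was higher by 1.86, 2.50, 1.48 and 1.64 in the same order. The last exon thus had the larger ratio in each of the 4 isolations. An annotated transcript, ENSMUST00000118204, starts downstream of the first exon. By estimate it took 48.3% and 66.0% of the locus in BMP4 cells, against 52.5% and 29.3% in vehicle_a cells. In BMP6 cells it took 85.5% and 70.8%, against 48.5% and 30.2% in vehicle_b cells. The part of this transcript in the unequal ratios was not tested. A short form of Skil that lacks 138 bases of an internal exon, as the SnoN2 form does, took 36.0% and 27.6% of the locus in BMP4 cells, 28.1% and 35.1% in vehicle_a cells, 13.3% and 21.0% in BMP6 cells, and 17.7% and 60.2% in vehicle_b cells. For the short form the replicates of vehicle_b alone spanned more than the gap between any of the groups, so no shift towards or away from it could be read.

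Ski (merged_LIST.17641, GRCm39 chromosome 4, 155238532 to 155307049, minus strand) is the founding member of the family. It stood at 26.0 and 30.9 TPM in BMP4 cells, against 23.0 and 21.1 TPM in vehicle_a cells. It stood at 28.1 and 28.1 TPM in BMP6 cells, against 22.5 and 23.1 TPM in vehicle_b cells. Each stimulated library lay above every vehicle library, but the shift was small. The change in log2(TPM + 0.5) was 0.36 with BMP4 (SE 0.12, 95% interval 0.07 to 0.65), 0.30 with BMP6 (0.00 to 0.59) and 0.33 on average, and none of these passed in limma (adjusted p = 1, 1 and 0.894; with the isolation term 0.151, 0.76 and 0.171). Within isolations it was 0.17, 0.54, 0.31 and 0.28 in 48, 54, 75 and 77. The last exon of Ski showed log2 ratios of 0.24, 0.63, 0.35 and 0.29 and the first exon 0.07, 0.34, 0.34 and 0.33 in that order, so both ends of the transcript were higher in each isolation.

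The response of Skil exceeded that of Ski by 1.41 log2 units on average over the isolations (SD 0.28, n = 4), with the same sign in 4 of 4. It exceeded that of Tgif1 by 1.13 (SD 0.43, n = 4) and that of Pmepa1 by 0.42 (SD 0.33, n = 4), again in 4 of 4. Each of these 3 differences had the smallest p that a two-sided exact sign-flip permutation test can give with 4 isolations, or 0.167 after Benjamini-Hochberg adjustment over the 4 pairs compared, so that none could pass. The other pair, Tgif1 minus Tgif2, averaged 0.47 (SD 0.71, n = 4, exact permutation p = 0.5), and was positive in both BMP4 isolations and negative in both BMP6 isolations.

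Pmepa1 (merged_LIST.14572, GRCm39 chromosome 2, 173066251 to 173118326, minus strand) acts at the membrane and not in the nucleus. It stood at 34.5 and 50.7 TPM in BMP4 cells, against 10.7 and 18.8 TPM in vehicle_a cells. It stood at 27.1 and 25.4 TPM in BMP6 cells, against 12.01 and 11.8 TPM in vehicle_b cells. The groups did not overlap in either experiment. Each library of isolation 54 lay above the library of the same group from isolation 48, so that the 2 BMP4 pairs shifted together. The SD was 11.4 TPM in BMP4 cells and 5.78 TPM in vehicle_a cells (n = 2 each). It was 1.20 TPM in BMP6 cells and 0.158 TPM in vehicle_b cells (n = 2 each). The fit took 1 spread for all 4 groups, so the SE with BMP6 also holds the larger spread of the BMP4 experiment. The change in log2(TPM + 0.5) was 1.53 with BMP4 (SE 0.29) and 1.11 with BMP6 (SE 0.29), and neither passed in limma without the isolation term (adjusted p = 0.481 and 1). With that term the SE was 0.07 and Pmepa1 rose with both ligands, by limma adjusted p values of 0.00753 with BMP4, 0.0302 with BMP6 and 0.00334 for their mean of 1.32. In that fit 2 of the 5 genes (Skil and Pmepa1) passed with BMP4, where 0.544% of tested loci passed as higher. With BMP6 it was Pmepa1, 1 of the 5, against 0.136%, and for the mean Skil and Pmepa1, 2 of the 5, against 0.627%.

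Leaving out isolation 75 or 77 took the BMP6 call of Pmepa1 away (limma with the isolation term, adjusted p = 0.387 and 0.278), where 1 BMP6 pair was left and was assumed to vary like the BMP4 isolations. The BMP4 values in the same fits were 0.0334 and 0.0346. Without isolation 48 or 54, 1 BMP4 pair was left and its spread came from the BMP6 isolations alone, so that its adjusted p there is no sign of stability. Within isolations the changes were 1.65, 1.40, 1.14 and 1.08 in 48, 54, 75 and 77. Its first exon showed log2 coverage ratios of 1.84, 1.38, 0.98 and 1.20 and its last exon 1.70, 1.45, 1.20 and 1.10, so the 2 ends of its 1 annotated transcript moved by like amounts. In stimulated cells Pmepa1 ranged over 25.4 to 50.7 TPM and Skil over 46.0 to 61.1 TPM. In vehicle cells the ranges were 10.7 to 18.8 TPM for Pmepa1 and 12.3 to 17.1 TPM for Skil, so that the genes overlapped in both states.

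**Figure D2:**
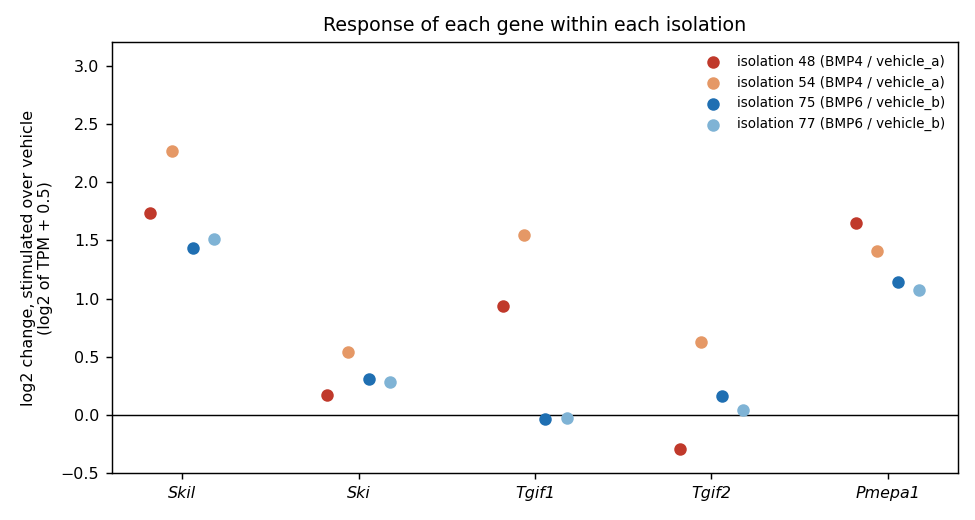
Change in log2(TPM + 0.5), stimulated over vehicle (vertical axis), for the 5 genes in isolations 48 and 54 (BMP4 over vehicle_a) and 75 and 77 (BMP6 over vehicle_b). Each point is 1 isolation; Skil lies between 1.43 and 2.27, Pmepa1 between 1.08 and 1.65, and Tgif1 at 0.93 and 1.54 with BMP4 but at -0.03 in both BMP6 isolations.

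Tgif1 (merged_LIST.11048, GRCm39 chromosome 17, 71151200 to 71160541, minus strand) stood at 54.4 and 44.6 TPM in BMP4 cells, against 28.3 and 15.0 TPM in vehicle_a cells. It stood at 50.2 and 77.5 TPM in BMP6 cells, against 51.2 and 79.1 TPM in vehicle_b cells. The BMP4 group lay above vehicle_a without overlap, whereas the BMP6 and vehicle_b levels of an isolation were nearly equal and the isolations themselves differed. The change was 1.24 with BMP4 (SE 0.37, 95% interval 0.35 to 2.12, limma adjusted p = 1) and -0.03 with BMP6 (SE 0.37, limma adjusted p = 1). With the isolation term the BMP4 change had an SE of 0.14 and a limma adjusted p of 0.0524, and so did not pass. Without isolation 48 or 54 the change was 1.54 and 0.93 (limma adjusted p = 0.00786 and 0.0223), but 1 BMP4 pair was then left and its spread came from the BMP6 isolations alone, so that these p-values are no sign of stability. The BMP6 response minus the BMP4 response was -1.27 (SE 0.52, 95% interval -2.52 to -0.02), which did not pass in limma, with an adjusted p of 1 and, with the isolation term, 0.253. No tested locus passed for that difference in either fit, that is 0%. An unadjusted limma p under 0.05 was found for 244 and 2251 loci without and with the isolation term, where 845.4 are expected if no locus changed. For the other 4 genes the difference was -0.53 for Skil, -0.42 for Pmepa1, -0.06 for Ski and -0.07 for Tgif2, each with a limma adjusted p of 1.

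The vehicle cells of the 2 experiments differed in Tgif1. It was higher in vehicle_b than in vehicle_a by 1.61 log2 units (SE 0.37, limma adjusted p = 0.0277), the only one of the 5 genes to pass, where 10.6% of tested loci passed as higher and 27.2% in either direction. Skil was 0.33 higher, Ski 0.05 higher, Pmepa1 0.24 lower and Tgif2 0.41 lower in vehicle_b, none of which passed (limma adjusted p of 0.121 for Skil and 0.207 for Tgif2). The vehicle_b libraries lay above the vehicle_a libraries without overlap for 2 of the 5 genes, Skil and Tgif1, as for 34.9% of tested loci. They lay below without overlap for Tgif2, a direction whose share over all tested loci was not computed. The Tgif1 call was lost without vehicle_a replicate 2 (1.16, limma adjusted p = 0.124), vehicle_b replicate 1 (1.92, adjusted p = 0.0774) or vehicle_b replicate 2 (1.29, adjusted p = 0.153), and with no filter on low loci (1.61, adjusted p = 0.0608). The myogenic, the fibroblast and the pericyte and smooth muscle sums given above were lower in vehicle_b than in vehicle_a, and their part in the Tgif1 difference was not tested. Tgif1 in BMP4 cells, at 44.6 and 54.4 TPM, thus overlapped with vehicle_b cells, at 51.2 and 79.1 TPM. Since each ligand was used in its own experiment, the ligand, the starting level and the experiment cannot be told apart.

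Tgif1 has several annotated first exons, and the 300-base windows around 3 of their starts (RefSeq, GRCm38.p6, from 250 bases before the start to 50 after it, written 5′ to 3′ on the minus strand of the gene) are shown because the coverage of each exon can be set against its own start. Capitals mark GTCT or its reverse complement AGAC, the core of the site that SMAD3 and SMAD4 bind, and GGCGCC, a GC-rich element bound by SMAD1 and SMAD5.
Tgif1 start of ENSMUST00000059775, chr17:70851161-70851460: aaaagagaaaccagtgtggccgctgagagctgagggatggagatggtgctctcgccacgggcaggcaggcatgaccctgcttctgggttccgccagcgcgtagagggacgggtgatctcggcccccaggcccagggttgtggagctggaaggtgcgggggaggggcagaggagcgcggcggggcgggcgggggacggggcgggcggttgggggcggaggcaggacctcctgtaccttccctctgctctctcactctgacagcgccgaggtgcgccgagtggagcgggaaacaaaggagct
Tgif1 start of ENSMUST00000166395, chr17:70851685-70851984: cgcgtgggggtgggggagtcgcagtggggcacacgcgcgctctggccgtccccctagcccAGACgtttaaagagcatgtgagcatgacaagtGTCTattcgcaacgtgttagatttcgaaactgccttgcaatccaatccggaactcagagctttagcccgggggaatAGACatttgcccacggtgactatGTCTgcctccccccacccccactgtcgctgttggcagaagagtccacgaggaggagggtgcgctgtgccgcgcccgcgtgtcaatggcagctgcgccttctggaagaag
Tgif1 start of ENSMUST00000172229, chr17:70849741-70850040: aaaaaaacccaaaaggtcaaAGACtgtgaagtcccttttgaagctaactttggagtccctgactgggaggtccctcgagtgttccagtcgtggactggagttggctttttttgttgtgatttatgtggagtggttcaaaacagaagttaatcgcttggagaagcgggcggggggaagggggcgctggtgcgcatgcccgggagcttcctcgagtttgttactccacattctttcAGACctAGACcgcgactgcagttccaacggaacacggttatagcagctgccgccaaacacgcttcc
The first of these windows held 0 GTCT matches on either strand, the second 4 and the third 3, and none held GGCGCC or the palindrome GTCTAGAC. GTCT occurs in 88.0% of 32817 windows of this length, with a median of 2, so its presence is common and a match is a description only. The TGIF core TGTCA, counted on both strands, was found 1, 2 and 0 times in the 3 windows, against 45.4% of all windows with at least 1.

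The exon that belongs to the first of these starts carried 71.7% to 79.1% of the summed first-exon coverage of Tgif1 in the 8 libraries. Its coverage per 1000000 estimated reads was 1.52 and 0.996 in BMP4 cells, 0.747 and 0.419 in vehicle_a cells, 1.41 and 1.94 in BMP6 cells, and 1.42 and 2.12 in vehicle_b cells. The exon of the second start, whose window holds 4 GTCT matches, had 0.232 and 0.181 in BMP4 cells, 0.122 and 0.0596 in vehicle_a cells, 0.210 and 0.272 in BMP6 cells, and 0.231 and 0.252 in vehicle_b cells. Both exons were thus higher in each BMP4 isolation, with log2 ratios of 1.02 and 1.25 for the first and 0.93 and 1.60 for the second, while in isolations 75 and 77 the ratios were 0.00 and -0.13 for the first and -0.14 and 0.11 for the second. The exon of the third start had ratios of 0.00 and 1.07 in isolations 48 and 54, and 0.01 and 0.57 in 75 and 77, at a coverage of at most 0.453. A further annotated first exon, of ENSMUST00000118283, had a coverage of 0 in all 8 libraries. The first and the second start therefore both showed the pattern of the whole gene. The third did not, being level in isolation 48 and higher in isolation 77. The part of the GTCT matches in these changes was not tested.

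**Figure D3:**
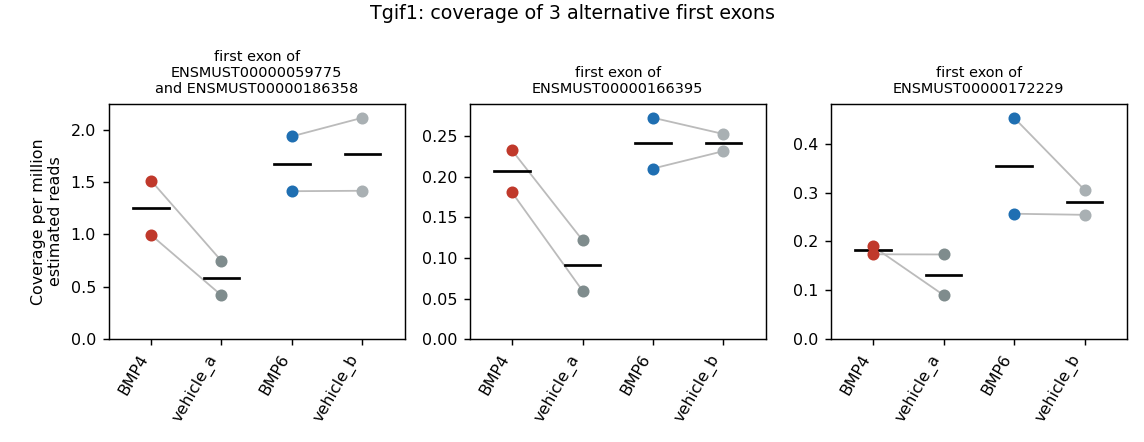
Coverage per 1000000 estimated reads (vertical axes, from 0) of 3 alternative first exons of Tgif1 in the BMP4, vehicle_a, BMP6 and vehicle_b libraries. Points are libraries, black bars means of 2 and grey lines join an isolation; the first 2 exons are higher in both BMP4 libraries than in their vehicle_a partners, at log2 ratios of 0.93 to 1.60, and near level with BMP6.

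The RefSeq window of Ski was the most GC-rich of those found for the 5 genes, at 85.3% against a median of 52.7% over all windows, and is shown because it alone among them held a GGCGCC element, in capitals.
Ski, chr4:155222486-155222785, minus strand, GRCm38.p6: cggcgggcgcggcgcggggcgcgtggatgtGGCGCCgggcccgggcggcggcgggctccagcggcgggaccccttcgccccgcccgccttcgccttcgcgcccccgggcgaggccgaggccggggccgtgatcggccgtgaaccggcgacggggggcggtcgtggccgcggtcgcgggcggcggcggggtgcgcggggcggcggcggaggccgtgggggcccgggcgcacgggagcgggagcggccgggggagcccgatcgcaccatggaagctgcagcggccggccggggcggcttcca
It held 1 such match, as 11.9% of all windows have at least 1, and 0 matches of GTCT. The window of Tgif2 held 0 matches of either motif. Of the 5 genes, 3 were matched to windows, Ski, Tgif1 and Tgif2; Skil and Pmepa1 are named only.

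Tgif2 (merged_LIST.14385, GRCm39 chromosome 2, 156681927 to 156697490, plus strand), the paralog of Tgif1, had the lowest level of the 5 genes in every library. It stood at 7.26 and 11.02 TPM in BMP4 cells, against 8.995 and 6.95 TPM in vehicle_a cells. It stood at 6.92 and 5.72 TPM in BMP6 cells, against 6.13 and 5.55 TPM in vehicle_b cells. The groups overlapped in both experiments, and isolations 48 and 54 moved in opposite directions, by -0.29 and 0.63. The change in log2(TPM + 0.5) was 0.17 with BMP4 (SE 0.23) and 0.10 with BMP6 (SE 0.23), and neither passed (limma adjusted p = 1 for both).

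The Tgif2 values are uncertain, because its sequence is shared with other loci. Of the 2851 stretches of 50 bases, the read length, in its main transcript, 85.4% also occurred in transcripts of other genes: 73.4% in 5430405H02Rik, a gene on the opposite strand, and 22.4% in the pseudogene Tgif2-ps2 on chromosome 17. The authors' run of StringTie used neither the strand nor a weighting of multi-mapping reads. Tgif2-ps2 stood at 7.17 and 10.3 TPM in BMP4 cells, 8.66 and 6.08 TPM in vehicle_a cells, 6.37 and 4.76 TPM in BMP6 cells, and 5.25 and 5.15 TPM in vehicle_b cells. Pseudogene and gene thus ran side by side over the libraries, at ratios of Tgif2 to Tgif2-ps2 of 1.01 to 1.20, and their reads cannot be told apart where the sequence is the same. The antisense gene 5430405H02Rik held 0.866 to 3.34 TPM. For Ski, Tgif1 and Pmepa1 the same search found 0 shared stretches in the main transcript of each, and Tgif1-ps, Tgif2lx1 and Tgif2lx2 were listed at 0 in all libraries. For Skil it also found 0, but only in a sequence of 2904 bases from an earlier annotation. The last exon of the transcript as quantified, 31172604 to 31176726, is longer than that, so part of Skil was not searched.

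**Figure D4:**
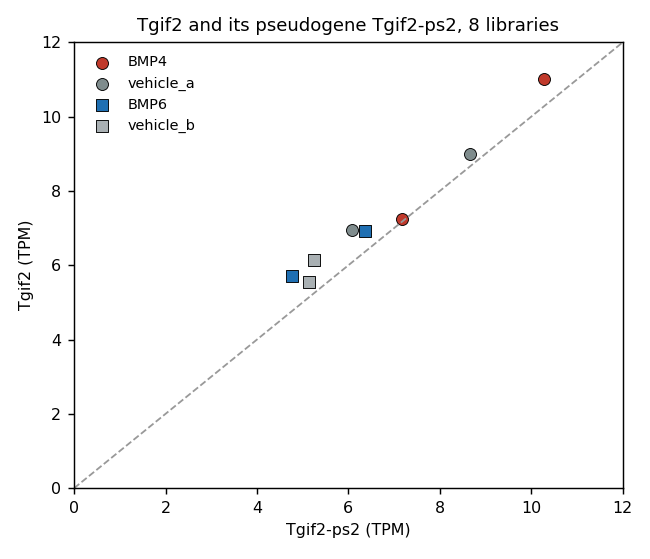
Tgif2 (vertical axis, TPM) against its pseudogene Tgif2-ps2 (horizontal axis, TPM) in the 8 libraries, both axes from 0, with the line of equality dashed. Each point is 1 library; all lie on or slightly above the line, at ratios of 1.01 to 1.20.

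By level, Tgif2 was lowest in each library and Tgif1 highest in the 4 libraries of the BMP6 experiment. In stimulated cells Skil, at 46.0 to 61.1 TPM, lay above Ski, at 26.0 to 30.9 TPM, without overlap, while Pmepa1 overlapped both. In vehicle cells the order was the other way round, with Ski at 21.1 to 23.1 TPM and Skil at 12.3 to 17.1 TPM, again without overlap, and Pmepa1 overlapped Skil but not Ski. TPM is per transcript length, so that these levels can be set side by side.

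**Figure D5:**
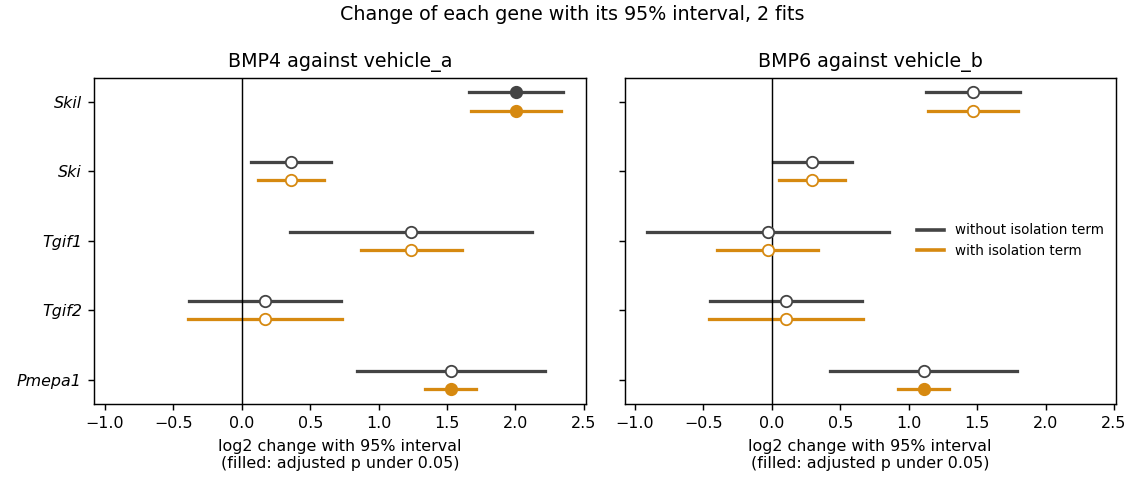
Change in log2(TPM + 0.5) with its 95% interval (horizontal axes) for the 5 genes, BMP4 against vehicle_a on the left and BMP6 against vehicle_b on the right, from limma without and with an isolation term. Filled points have an adjusted p under 0.05: Skil in both fits with BMP4, and Pmepa1 with both ligands once the isolation term is in.

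The genes around the 5 co-repressors were read from lists of relatives, partners and regulators, which were chosen with earlier results of these data known. Of the SKI and DACH relatives none of 4 was high enough to test: Skor1 and Skor2 were at 0 in all libraries, and Dach1 and Dach2 averaged 0.05 and 0.02 TPM. Of the complex subunits through which SKI, SnoN and the TGIF proteins repress, 0 of 13 tested passed in either direction with either ligand and in either fit, with medians of 0.01 with BMP4 and 0.02 with BMP6, against -0.02 and -0.0021 over all tested loci. These genes were expressed throughout: the scaffold Ncor1 averaged 32.7 TPM, the deacetylase Hdac1 52.9 TPM and the CtBP co-repressor Ctbp1 126.3 TPM. Of the other SMAD-binding repressors 0 of 6 tested passed, of the TALE relatives of the TGIF genes 0 of 7, and of the relative and partners of PMEPA1 0 of 8. Of all tested loci, 0.0177% without and 0.544% with the isolation term passed as higher with BMP4, and 0.00591% and 0.136% with BMP6. At such shares a count of 0 in lists of this size says little about their genes. Ldlrad4, the closest relative of Pmepa1, changed by 0.02 with BMP4 and -0.07 with BMP6 at 2.50 TPM (limma adjusted p = 1 for both).

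Of the ubiquitin ligases and deubiquitinases that act on SKI, SnoN or SMADs, 0 of 9 tested passed in either direction. At most 0.544% of all tested loci passed as higher with either ligand, so that this count also says little. Rnf111, which encodes the ligase Arkadia that degrades SnoN and SKI when the pathway is active, changed by 0.01 with BMP4 and 0.09 with BMP6 at 13.5 TPM (limma adjusted p = 1 for both). Protein levels of SnoN and SKI were not measured.

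Of the 8 SMAD genes, Smad7 alone passed with BMP4 without the isolation term, where 0.0177% of tested loci passed as higher. Smad7 and Smad6 passed with that term under either ligand, where 0.544% of tested loci did so with BMP4 and 0.136% with BMP6. Smad7, an inhibitory SMAD, stood at 27.3 and 22.5 TPM in BMP4 cells against 3.36 and 2.01 TPM in vehicle_a cells, and at 29.3 and 32.1 TPM in BMP6 cells against 5.01 and 6.27 TPM in vehicle_b cells. Its change of 3.02 with BMP4 (limma adjusted p = 0.04) and 2.35 with BMP6 compared with 2.00 and 1.47 for Skil. Smad6, the inhibitory SMAD that favours BMP receptors, changed by 1.64 with BMP4 and 2.24 with BMP6 (limma with the isolation term, adjusted p = 0.042 and 0.0452). For the mean of both ligands Smad9, named after its value was seen, passed as well with the isolation term, at 0.74 (limma adjusted p = 0.0379). In that fit 3 of the 8 thus rose, against 0.627% of tested loci.

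Among known early targets of BMP SMADs, 8 of 21 tested rose with BMP4 and 6 of 21 with BMP6 in limma with the isolation term. Of all tested loci 0.544% and 0.136% did so. Without that term 1 and 0 of the 21 rose, against 0.0177% and 0.00591% of tested loci. The median changes were 1.11 and 1.25, against -0.02 and -0.0021 over all tested loci. Id1, an inhibitor of basic helix-loop-helix factors such as MyoD, changed by 1.54 with BMP4 and 1.83 with BMP6 (limma with the isolation term, adjusted p = 0.0367 and 0.0481). Hes1, a Notch-linked repressor, changed by 2.67 with BMP4 and 3.10 with BMP6 (adjusted p = 0.0226 and 0.0302 by the same limma fit). The homeobox gene Dlx2 passed with BMP4 at 2.76 (adjusted p = 0.0471 in the same limma fit) and Snai1, a repressor of epithelial genes, with BMP6 at 3.47 (adjusted p = 0.0411 in the same limma fit). The BMP antagonist gene Nog passed with BMP4 at 1.44 (limma with the isolation term, adjusted p = 0.0407). Junb passed with BMP4 at 1.42 and with BMP6 at 1.00 (adjusted p = 0.00326 and 0.0121 in the same limma fit). For the mean of both ligands 12 of the 21 passed with the isolation term, among them the homeobox gene Dlx3 at 2.29, against 0.627% of tested loci as higher. Without the term 5 of the 21 passed, against 0.0651%. Smad7 and Smad6 are also in this list, and Smad7 in the next.

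The early response and feedback genes of TGF-beta, to which Skil and Pmepa1 are usually assigned, were mixed. With BMP4 4 of 18 rose in limma with the isolation term and 1 without it, against 0.544% and 0.0177% of tested loci. With BMP6 it was 2 of 18 and 0, against 0.136% and 0.00591%. The medians were 0.48 and 0.15, against -0.02 and -0.0021 over all tested loci. Spsb1, a gene for an adaptor of a ubiquitin ligase, and Bhlhe40, a transcriptional repressor gene, passed with BMP4 at 2.33 and 2.16 (limma with the isolation term, adjusted p = 0.00982 and 0.00326). Klf10, the TGF-beta inducible zinc finger gene, changed by 2.72 with BMP4 and 1.70 with BMP6, and passed for the mean of 2.21 with the isolation term (limma adjusted p = 0.0357). Cdkn2b, a cell cycle inhibitor gene that TGF-beta raises in epithelial cells and named here after its value was seen, was the one gene of the list to pass as lower, at -0.33 for the mean of both ligands (limma with the isolation term, adjusted p = 0.0446; without it, 1).

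The genes whose 4 within-isolation changes lay closest to those of each co-repressor were found among 8695 loci of at least 5 TPM with a single name, by the root-mean-square (RMS) difference over the 4 isolations. For Skil these were Cldn4, a tight junction gene (0.19 log2 units), Wnt9a, a WNT ligand gene (0.32), and Pwwp2b (0.37). For Pmepa1 they were Junb, an AP-1 factor gene (0.14), Wnt9a (0.23) and Mir24-2 (0.31). Junb stood at 208.8 and 264.9 TPM in BMP4 cells against 76.4 and 99.8 TPM in vehicle_a cells, and at 199.7 and 218.5 TPM in BMP6 cells against 103.1 and 104.6 TPM in vehicle_b cells. For Tgif1 they were Klf9 (0.19), Rnf19b (0.23) and Jmjd1c (0.24), each higher in both BMP4 isolations and by at most 0.20 in the BMP6 isolations. For Ski they were Heyl (0.049), Cdon (0.059) and Klf13 (0.063), and for Tgif2 Dok1 (0.060), its own pseudogene Tgif2-ps2 (0.097) and Ppp1r18 (0.10).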

How the data were processed

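Poly(A) RNA of 8 cultures was made into strand-specific libraries and read from 1 end over 50 nt, as the labels' protocols state. Per the submitters' processing notes, the tools were STAR 2.7.11a, SAMtools 1.17 and StringTie 2.2.1, with the build GRCm39. TPM and FPKM values were deposited by the authors, estimated against a merged annotation with multi-mapping correction off and no strand option, per the file headers. Coverage signal of transcripts and exons was deposited in the same output. No read counts were used here; reads were estimated as coverage times length over read length. Joint and single-library TPM tables were equal in 55223 of 55223 rows (tolerance 1e-05).

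limma 3.58.1 (R 4.3.3) was fitted with a trend to log2(TPM + 0.5) of the 16908 loci that averaged 0.5 TPM or more, with 4 group means. Adjusted p values are two-sided Benjamini-Hochberg values over all these loci, with a threshold of 0.05. Changes on this scale understate those of low genes. The labels give both libraries of an isolation 1 code, so isolations pair the samples, and their deviations from group means correlated at 0.707 (isolations 48 and 54) and 0.455 (75 and 77). A second fit therefore had the isolation as a term (replicate block). No replicates were duplicates. The chi-square per locus between them was 218.5 for BMP4, 198.9 for vehicle_a, 32.4 for BMP6 and 31.5 for vehicle_b. Replicates thus differed more in the BMP4 experiment, while the fits of all 8 libraries took 1 spread per locus for all groups. At this depth read sampling is small beside the spread between isolations for whole genes, while some single exons and low genes rest on few reads.

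Genes named outside the 5 were those of the lists that passed in either fit (at most 8 a comparison), 6 set genes (Smad7, Smad6, Id1, Klf10, Ldlrad4, Rnf111) and, for each of the 5, the 3 most alike. The 5 genes, the lists and the tests were chosen with earlier results of these data known. The fit was tried on simulated data that had the same spread in every group of a locus. The unequal spread of the experiments was thus not tested. Other pseudocounts, filters and scalings, FPKM, and voom on estimated reads were tried. Single genes of the lists that are withheld are not reported here.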

Additional observations from a re-analysis of the deposited data

Results flagged for a closer look

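Tgif1 was the 1 result of the 5 genes that moved in different ways in the 2 experiments: it was higher in both BMP4 isolations (0.93 and 1.54) and marginally lower in both BMP6 isolations (-0.03 in each), a difference of -1.27 (SE 0.52). The difference itself did not pass in limma (adjusted p = 1, and 0.253 with the isolation term). The BMP6 values are so near 0 that their sign carries little. The vehicle cells of the 2 experiments also held different Tgif1 levels, 51.2 and 79.1 TPM in vehicle_b and 28.3 and 15.0 TPM in vehicle_a, and the part of this in the difference was not tested.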

How the results depend on the processing

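Of the members' changes under other settings, 441 kept direction and side of the threshold, 29 gained a call, 18 lost one and 17 turned. The last were all uncalled values with a library or isolation left out. In all 28 settings of the pair differences the mean kept its sign and moved by less than the SD over the isolations. Tgif1 minus Tgif2 lay at 0.22 (without isolation 48) to 0.69 (without isolation 75). No p was computed for the pairs in these settings.

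The pairing by isolation (replicate block) moved the loci called to 107 with BMP4, 25 with BMP6 and 114 for the mean (without it 4, 2 and 12), and gave Pmepa1 its calls at 1.53, 1.11 and 1.32. No blocked fit exists for vehicle_b against vehicle_a, whose isolations differ. With voom and the block the counts were 1039, 73 and 346, and 30 for the ligand difference (0 otherwise), and Pmepa1 (1.54, 1.14, 1.34), Skil with BMP6 (1.48), Tgif1 with BMP4 (1.20) and for the mean (0.58) and Ski for the mean (0.33) gained a call. Voom without the block and FPKM gave 2 loci each with BMP4. Without the low filter the counts were 8, 12, 7, 1 for the ligand difference and 2490 for vehicle_b against vehicle_a (4602 otherwise), where Tgif1 (1.61) lost its call. With BMP6 a pseudocount of 2 gave 0 loci and a filter at 2 TPM 1. With the 4 libraries of 1 experiment alone, 0 loci passed with BMP4 and Skil (2.00) lost its call, while 12 passed with BMP6 and Skil (1.47) gained one. The cause was not tested.

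Leaving out 1 library, or 1 isolation with the block, the counts ranged from 0 to 145 with BMP4, 0 to 49 with BMP6, 0 to 192 for the mean, 0 to 16 for the ligand difference and 5 to 5551 between vehicles. The changes ranged with BMP4 from 1.74 to 2.27 for Skil, 1.13 to 1.92 for Pmepa1, 0.79 to 1.68 for Tgif1 and -0.29 to 0.63 for Tgif2. With BMP6 they ranged from 1.42 to 1.52 for Skil, 1.06 to 1.15 for Pmepa1, -0.34 to 0.28 for Tgif1 and -0.025 to 0.23 for Tgif2. For the mean they ranged from 1.60 to 1.87 for Skil, 1.12 to 1.52 for Pmepa1, 0.24 to 0.42 for Ski, 0.38 to 0.83 for Tgif1 and -0.095 to 0.37 for Tgif2. For the ligand difference they ranged from -0.80 to -0.27 for Skil, -0.81 to -0.022 for Pmepa1, -0.25 to 0.12 for Ski, -1.71 to -0.82 for Tgif1 and -0.53 to 0.39 for Tgif2. Between vehicles they ranged from 1.16 to 2.05 for Tgif1, -0.64 to 0.15 for Pmepa1 and -0.011 to 0.11 for Ski. The ligand difference of Tgif1 passed once, with the block and without isolation 48 (-1.57, limma adjusted p = 0.0282). Leaving out an isolation with the block leaves 1 pair for its ligand, assumed to vary like the other ligand's isolations, so that a call there is no sign of stability.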
